A study of Mus musculus with 9 samples.

Results

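The genes described here are those whose level in freshly isolated mammary epithelial (ME) cells lay apart from both kinds of induced pluripotent stem cell (iPSC) culture of the same study. ME replicates 2 and 3 were set against 6 arrays of differentiated iPSCs, and a gene was taken when both ME arrays lay on one side of all 6. Of 20422 genes, 7801 met this rule, 3613 with both ME arrays above and 4188 with both below. ME cells came straight from mouse mammary gland. D-ME-iPSC are iPSCs reprogrammed from mouse ME cells and then differentiated toward mammary epithelium. D-TF-iPSC are iPSCs made from mouse tail-tip fibroblasts (TF) and taken through the same protocol. Each group has 3 arrays of total RNA, so 8 of the 9 arrays of the series entered. Both kinds of iPSC had been made with retroviruses for Oct4, Sox2, Klf4 and c-Myc and a lentiviral EOS-EGFP reporter. Both were differentiated in ME growth medium with serum, first in wells coated with Matrigel. They were then reseeded in plates with Matrigel in the medium, which the methods say can be left out after the first day. The ME cells used for reprogramming came from virgin females of 2 and 6 months, and the tail fibroblasts from mice of 2 months. The paper states that the ME cells and cultures it implanted expressed a beta-galactosidase gene, but not whether those on the arrays did. The labels and methods do not name the strain, age or reproductive stage of the mice behind the ME arrays. Nor do they say whether the arrays of a culture come from 1 iPSC line or several. They describe no sort of the ME cells before RNA extraction.

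The mammary gland is built of an inner luminal layer, which includes the cells that make milk, and an outer basal layer of contractile myoepithelial cells, set in a fatty stroma with fibroblasts, vessels and immune cells. Milk protein genes are driven by prolactin through the transcription factor STAT5, together with glucocorticoid and contact with a laminin-rich matrix. Cells that spread on a dish build stress fibres, secrete matrix and matrix proteases, and divide when serum is present.

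The deposited values are log2 expression values per probe set, where 1 unit is a 2-fold difference, and a gene here is the mean of its probe sets. Array medians of all probe sets lay between 7.45 and 7.61, and ME replicates 2 and 3 had upper quartiles of 8.973 and 9.051, against 9.121 to 9.219 in the 6 cultured arrays. The array labelled ME replicate 1 was left out because its gene values correlated with the 3 D-ME-iPSC arrays at r = 0.9914 to 0.9933 and with the other 2 ME arrays at 0.9201 and 0.9431; those 2 correlated with each other at 0.973, over 20422 genes. This choice rests on measured values, so results with all 9 arrays are given as well. In bulk RNA of this kind fewer cells of a type and less RNA per cell cannot be told apart. In the sentences below ME values are those of replicates 2 and 3, in that order, and culture values run from replicate 1 to 3.

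The groups were tested with limma on the 8 arrays, as ME minus the average of both culture means. A gene was called when its Benjamini-Hochberg adjusted p over all genes was under 0.05 and the ME arrays lay apart from all 6 cultured arrays. By this rule 2795 genes were higher in ME, 13.7% of all genes, and 3973 were lower, 19.5%. Called genes that were higher had a median log2 difference of 0.50 and those that were lower a median of -0.70, and 542 and 992 of them differed at least 2-fold. The last gene called, Gm5177, had a difference of -0.31 and an adjusted p of 0.0499, and the first separated gene not called, 9830107B12Rik, had 0.37 and 0.05. The split moved with scaling: after each array was centred on its own median, 4460 genes were higher and 3261 lower, 21.8% and 16.0% of all genes, as the median difference over all genes moved from 0.04 to 0.13. Lower calls were concentrated among bright genes, with 38.1% of genes in the top quartile of level lower in ME and 1.68% in the bottom quartile, while higher calls took 12.1% to 14.9% of each quartile. With all 9 arrays the calls numbered 393 higher, 1.92%, and 244 lower, 1.19%.

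**Figure D1:**
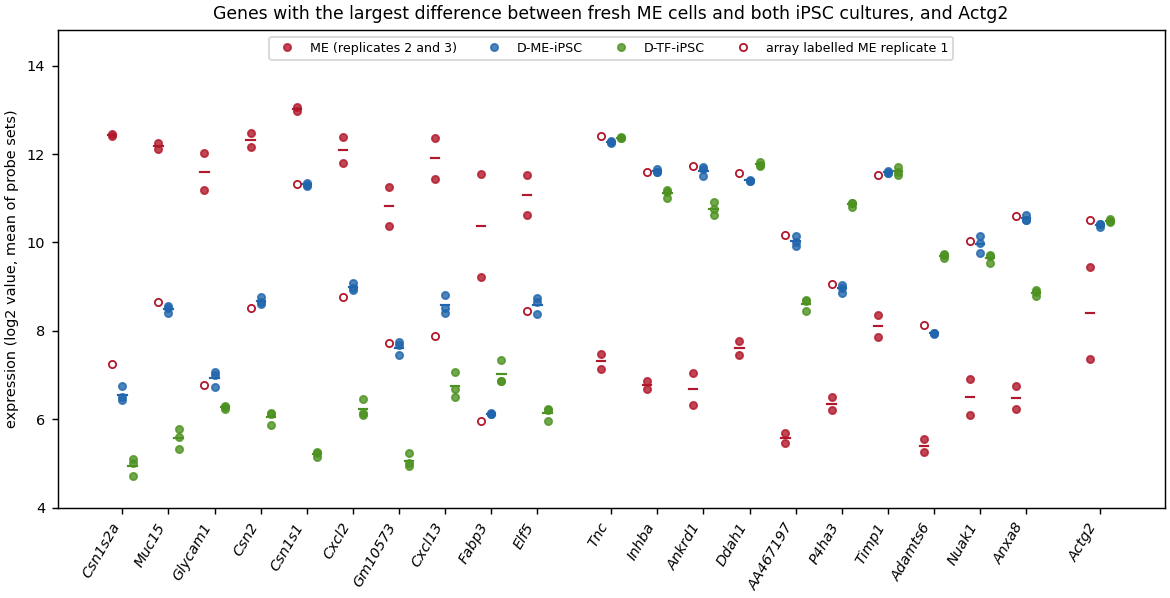
Log2 values per array of the 10 called genes with the largest difference each way and of Actg2, with ME replicates 2 and 3 (red), D-ME-iPSC (blue) and D-TF-iPSC (green); bars are group means and the open circle is the array labelled ME replicate 1. The 2 ME arrays stood above all 6 cultured arrays for the 10 genes on the left and below them for the others, and the open circle lay near the D-ME-iPSC arrays for most genes.

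Milk protein genes had the largest share of higher members among the 36 lists examined: 16 of 19 measured members were called higher and none lower, with a median log2 difference of 2.10 against 0.04 over all genes. Csn1s2a, which encodes an alpha-S2-like casein, had log2 values of 12.46 and 12.41 in ME, against 6.43, 6.75 and 6.50 in D-ME-iPSC and 4.71, 5.00 and 5.11 in D-TF-iPSC. Both ME arrays were far above every culture, and D-TF-iPSC was the lowest group. The difference was 6.68 on the log2 scale (SE 0.12), or 103-fold, with an adjusted p of 3.33e-09 by limma, and all 12 of its probe sets separated the groups. Csn2, the gene of beta-casein, had 12.17 and 12.48 in ME, against 8.64, 8.60 and 8.77 in D-ME-iPSC and 6.13, 5.88 and 6.14 in D-TF-iPSC. Its level was 12.6-fold higher in ME than in D-ME-iPSC and 77.5-fold higher than in D-TF-iPSC. Both values rest on the same ME arrays.

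Csn1s1, the alpha-S1-casein gene, ran differently between the cultures. It had 12.97 and 13.07 in ME, against 11.31, 11.29 and 11.35 in D-ME-iPSC and 5.26, 5.16 and 5.23 in D-TF-iPSC, so ME exceeded D-ME-iPSC by 3.25-fold and D-TF-iPSC by 223-fold. Glycam1, a mucin-like protein secreted into milk, had 12.02 and 11.18 in ME, against 6.73, 7.07 and 7.01 in D-ME-iPSC and 6.30, 6.27 and 6.23 in D-TF-iPSC. Both cultures were low, and the difference was 5.00 (SE 0.19). Muc15, a mucin of the milk fat globule membrane, had 12.25 and 12.12 in ME, against 8.52, 8.55 and 8.42 in D-ME-iPSC and 5.79, 5.34 and 5.60 in D-TF-iPSC. Csn3, which encodes the kappa-casein that stabilises casein micelles, was 7.87-fold higher in ME than in the cultures (adjusted p = 8.31e-08, limma).

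The size of the difference varied among milk genes. Wap, the whey acidic protein gene, had 9.35 and 7.01 in ME, against 6.81, 6.52 and 6.57 in D-ME-iPSC and 6.68, 6.74 and 6.98 in D-TF-iPSC, so its difference of 1.46 came from replicate 2: without that array it was 0.29 (adjusted p = 0.136, limma), and without replicate 3 it was 2.64. Lalba, the alpha-lactalbumin gene, had 5.87 and 5.99 in ME and 5.40 to 5.74 in the 6 cultured arrays, a difference of 0.39. Olah, a thioesterase that ends fatty acid chains early to give the medium-chain fats of milk in rodents, had 8.86 and 7.32 in ME, against 4.91 to 5.32 in the cultured arrays. Xdh, whose product xanthine oxidoreductase takes part in the envelopment of milk fat droplets, had 10.02 and 10.04 in ME, against 7.64, 7.76 and 7.75 in D-ME-iPSC and 8.08, 8.09 and 8.26 in D-TF-iPSC. The 3 members not called were Ltf, Muc1 and Mfge8. The size of the leading differences depended on the probe sets used: with the brightest one alone Csn2 was 2.88, Csn1s1 2.09, Glycam1 1.90 and Csn3 1.55 log2 units higher in ME, each still called.

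The promoters of the 4 casein and Glycam1 genes that hold the STAT5 consensus TTCNNNGAA are shown because these genes lead the higher group. They are RefSeq sequences of mouse build GRCm38.p6, from 250 bases before the annotated start to 50 bases after its first base, 5′ to 3′ on the gene's strand, with the match in capitals; the consensus reads the same on both strands. Csn1s1, Csn1s2a and Csn2 lie on chromosome 5, at chr5:87665958-87666257 (plus strand), chr5:87774200-87774499 (plus) and chr5:87699376-87699675 (minus), and Glycam1 lies on chromosome 15 at chr15:103565032-103565331 (minus). The match begins 100, 93 and 145 bases before the start in Csn1s1, Csn2 and Glycam1, and 20 bases after it in Csn1s2a.
Csn1s1: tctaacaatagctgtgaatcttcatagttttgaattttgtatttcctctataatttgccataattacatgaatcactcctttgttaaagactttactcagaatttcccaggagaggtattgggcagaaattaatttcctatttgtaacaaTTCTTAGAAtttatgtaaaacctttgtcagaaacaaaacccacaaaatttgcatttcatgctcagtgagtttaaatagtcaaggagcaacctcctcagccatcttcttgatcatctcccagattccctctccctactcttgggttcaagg
Csn1s2a: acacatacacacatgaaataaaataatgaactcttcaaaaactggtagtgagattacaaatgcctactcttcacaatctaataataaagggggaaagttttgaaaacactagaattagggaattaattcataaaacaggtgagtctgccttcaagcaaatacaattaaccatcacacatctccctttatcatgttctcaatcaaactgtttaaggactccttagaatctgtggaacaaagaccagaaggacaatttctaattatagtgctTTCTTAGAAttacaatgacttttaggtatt
Csn2: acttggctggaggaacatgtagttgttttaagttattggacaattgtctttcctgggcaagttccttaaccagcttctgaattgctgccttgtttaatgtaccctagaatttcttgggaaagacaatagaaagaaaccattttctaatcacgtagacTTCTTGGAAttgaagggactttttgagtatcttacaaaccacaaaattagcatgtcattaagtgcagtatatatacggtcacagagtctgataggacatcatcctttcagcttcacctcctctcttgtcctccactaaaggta
Glycam1: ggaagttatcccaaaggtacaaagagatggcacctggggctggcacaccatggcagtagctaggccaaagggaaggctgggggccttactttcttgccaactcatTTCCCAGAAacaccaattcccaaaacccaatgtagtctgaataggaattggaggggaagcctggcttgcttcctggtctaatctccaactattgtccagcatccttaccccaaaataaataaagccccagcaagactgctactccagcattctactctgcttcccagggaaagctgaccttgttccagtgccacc
Of the 19 milk protein genes, 13 had a promoter in the table and these 4 held the consensus, against 2581 of all 27018 genes with a promoter there, or 9.55%. A match in this window is a description of the letters and was not tested for function.

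Of 13 luminal progenitor genes measured, 6 were called higher in ME, 7 were not called and none was lower, with a median difference of 1.15. The share higher was 46.2%, against 13.7% over all genes. Elf5, the ETS factor that specifies milk-secreting alveolar cells, had 11.52 and 10.62 in ME, against 8.39, 8.74 and 8.64 in D-ME-iPSC and 6.23, 6.21 and 5.96 in D-TF-iPSC, a 13.1-fold difference (adjusted p = 1.48e-06, limma). Ehf, another epithelial ETS factor, had 11.01 and 11.06 in ME, against 9.43, 9.58 and 9.60 in D-ME-iPSC and 6.67, 6.66 and 6.54 in D-TF-iPSC. Kit, a receptor tyrosine kinase of luminal progenitors, was closer, with 9.25 and 9.46 in ME, against 9.07 to 9.14 in D-ME-iPSC and 7.21 to 7.42 in D-TF-iPSC. The call on Kit ended when each culture had to pass (larger adjusted p = 0.0745, limma). For these genes D-ME-iPSC lay between ME and D-TF-iPSC. Aldh1a3, an aldehyde dehydrogenase used to mark the same cells, ran the other way against one culture: it had 7.75 and 8.21 in ME, 10.04 to 10.11 in D-ME-iPSC and 7.67 to 7.74 in D-TF-iPSC, and so was not called. Of 16 hormone-sensing luminal genes, 5, or 31.2% against 13.7% over all genes, were called higher and none lower. Gata3, a luminal zinc finger factor, was among the higher, at 1.65. With the brightest probe set in place of the mean, 1 of the 16 was higher and the call on Gata3 ended (0.25, adjusted p = 0.188, limma).

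The luminal keratins, the main basal keratins and most junction genes were not called. Krt8, the luminal keratin, had 13.11 and 12.77 in ME, against 13.05, 13.11 and 12.96 in D-ME-iPSC and 10.34, 10.30 and 9.85 in D-TF-iPSC. In Krt18, Krt19 and Epcam the ME arrays overlapped D-ME-iPSC in the same way, and none of these 4 luminal markers was called. Krt5, a basal keratin, had 9.94 and 11.24 in ME, against 12.12 to 12.21 in D-ME-iPSC and 8.34 to 8.79 in D-TF-iPSC, so the fresh cells lay between the cultures; Krt14 and the basal regulator Trp63 were not called either. Of 20 basal genes 2 were higher and 2 lower; the keratin Krt15 was one of the higher, with 7.26 and 8.87 in ME, against 6.08 to 6.47 in the 6 cultured arrays. Of 29 epithelial junction genes 8, or 27.6%, were higher and none lower, led by Ppl (periplakin, a desmosomal plaque protein) at 2.19. When each culture had to pass 5 were higher. Cldn1 (claudin 1 of tight junctions) was called at 1.86, but ME exceeded D-TF-iPSC by 3.38 and D-ME-iPSC by 0.34, the second not past the threshold (adjusted p = 0.0795, limma). In their own comparison 27 of the 29 junction genes were higher in D-ME-iPSC and none lower, where 15.5% of all genes were higher in D-ME-iPSC and 12.8% lower.

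**Figure D2:**
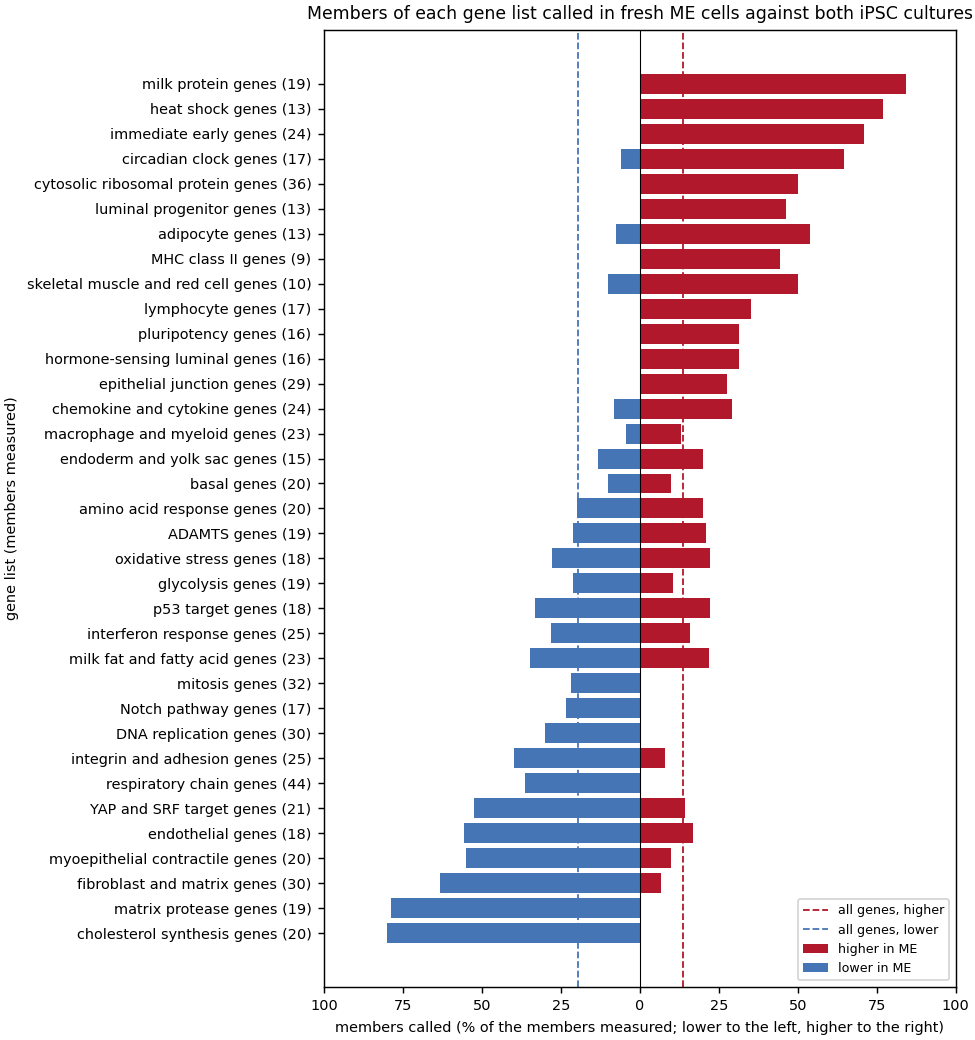
Percentage of the measured members of 35 gene lists called higher (red, right) or lower (blue, left) in ME than in both iPSC cultures; dashed lines mark the percentages over all genes, 13.7% and 19.5%. Milk protein, heat shock, immediate early and clock genes reach farthest right, and cholesterol synthesis, matrix protease and matrix genes farthest left.

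Early-response genes formed the next group. Of 24 immediate early genes, which are transcribed within minutes of a stimulus, 17 were called higher in ME and none lower, with a median difference of 0.87. Btg2, an antiproliferative gene of this class, had 11.77 and 11.70 in ME, against 9.41, 9.57 and 9.43 in D-ME-iPSC and 8.44, 8.45 and 8.24 in D-TF-iPSC, a difference of 2.82 (SE 0.09, adjusted p = 7.01e-08, limma). Atf3, a stress-induced bZIP factor, had 11.28 and 11.50 in ME, against 10.30 in all 3 D-ME-iPSC arrays and 7.43 to 7.72 in D-TF-iPSC. Fos and Egr1 separated by less: Fos had 9.59 and 9.79 in ME, against 9.44 to 9.51 in D-ME-iPSC and 7.15 to 7.25 in D-TF-iPSC. The call on Fos ended when each culture had to pass (larger adjusted p = 0.0953, limma). Of 13 heat shock genes, 10 were higher and none lower, with a median of 0.42; 5 were higher with the brightest probe set and 6 when each culture had to pass. The heat shock chaperone Hspa1a, read by a single probe set and close in sequence to other Hsp70 genes, had 12.36 and 12.93 in ME, against 10.49, 10.38 and 10.22 in D-ME-iPSC and 8.50, 8.91 and 8.51 in D-TF-iPSC.

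Of 24 chemokine and cytokine genes 7 were called higher in ME and 2 lower, or 29.2% and 8.33%, against 13.7% and 19.5% over all genes. Cxcl2, a ligand of the neutrophil receptor CXCR2, had 11.80 and 12.38 in ME, against 9.07, 8.96 and 8.93 in D-ME-iPSC and 6.14, 6.46 and 6.10 in D-TF-iPSC, or 22.3-fold. Cxcl1, which binds the same receptor, had 10.45 and 11.23 in ME, against 9.32 to 9.39 in D-ME-iPSC and 7.63 to 7.70 in D-TF-iPSC. Cxcl13, a chemokine for B cells, had 11.43 and 12.37 in ME, against 8.40, 8.82 and 8.52 in D-ME-iPSC and 7.07, 6.51 and 6.68 in D-TF-iPSC, a difference of 4.24 that was 1.57 with the brightest probe set. Il33 and Il6 were also higher, at 2.61 and 1.72. Csf1, the growth factor of macrophages, was lower, with 8.60 and 8.71 in ME, against 10.09 to 10.17 in D-ME-iPSC and 10.51 to 10.59 in D-TF-iPSC. Of 10 acute-phase genes, a list chosen after the values were seen, 7 were called higher and none lower; complement C3 had 12.58 and 12.57 in ME, against 10.91 to 10.96 in D-ME-iPSC and 8.70 to 8.87 in D-TF-iPSC.

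Clock genes were mostly higher in ME: 11 of 17 were called higher and 1, Clock at -0.25, lower, with a median of 0.72. The call on Clock ended under most alternatives, including centring (-0.15), quantile normalization (-0.11), the replicate block (-0.23) and leaving out any one of the 6 cultured arrays (-0.23 to -0.26) or ME replicate 2 (-0.14). Per1, a repressor in the clock loop that is also induced by glucocorticoid, had 9.24 and 9.77 in ME, against 7.54, 7.47 and 7.37 in D-ME-iPSC and 7.19, 7.28 and 7.27 in D-TF-iPSC. Nr1d1, the nuclear receptor REV-ERB alpha that represses Arntl, had 11.70 and 11.60 in ME, against 10.09, 10.19 and 10.16 in D-ME-iPSC and 10.05, 9.95 and 9.87 in D-TF-iPSC. D-ME-iPSC minus D-TF-iPSC was 0.21 for Per1 (adjusted p = 0.286) and 0.19 for Nr1d1 (adjusted p = 0.122, limma), neither past the threshold. The hour of day at which the mice and cultures were harvested is not named in the labels or methods.

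A list of genes known to be induced by glucocorticoid, put together after the values were seen and so given without a test of its own, had 15 of 17 members called higher and none lower, with a median of 1.72. Lpin1, a phosphatidate phosphatase of triglyceride synthesis, had 10.39 and 10.05 in ME, against 6.80, 6.76 and 6.66 in D-ME-iPSC and 6.62, 6.75 and 6.95 in D-TF-iPSC. Zbtb16, a zinc finger repressor, had 10.34 and 10.12 in ME, against 7.17, 7.12 and 7.23 in D-ME-iPSC and 6.99, 7.03 and 6.90 in D-TF-iPSC. Lpin1 was 11.0-fold and Zbtb16 8.91-fold higher in ME, and in neither gene did the test between the cultures pass the threshold (adjusted p = 0.882 and 0.128, limma). Tsc22d3, the leucine zipper protein GILZ, differed by 1.92, Fkbp5, a co-chaperone of the glucocorticoid receptor, by 1.33, and the metallothioneins Mt1 and Mt2 by 2.17 and 1.72. Sgk1 and Hif3a were the members not called. Per1, Mt1 and Mt2 also belong to other lists described here.

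**Figure D3:**
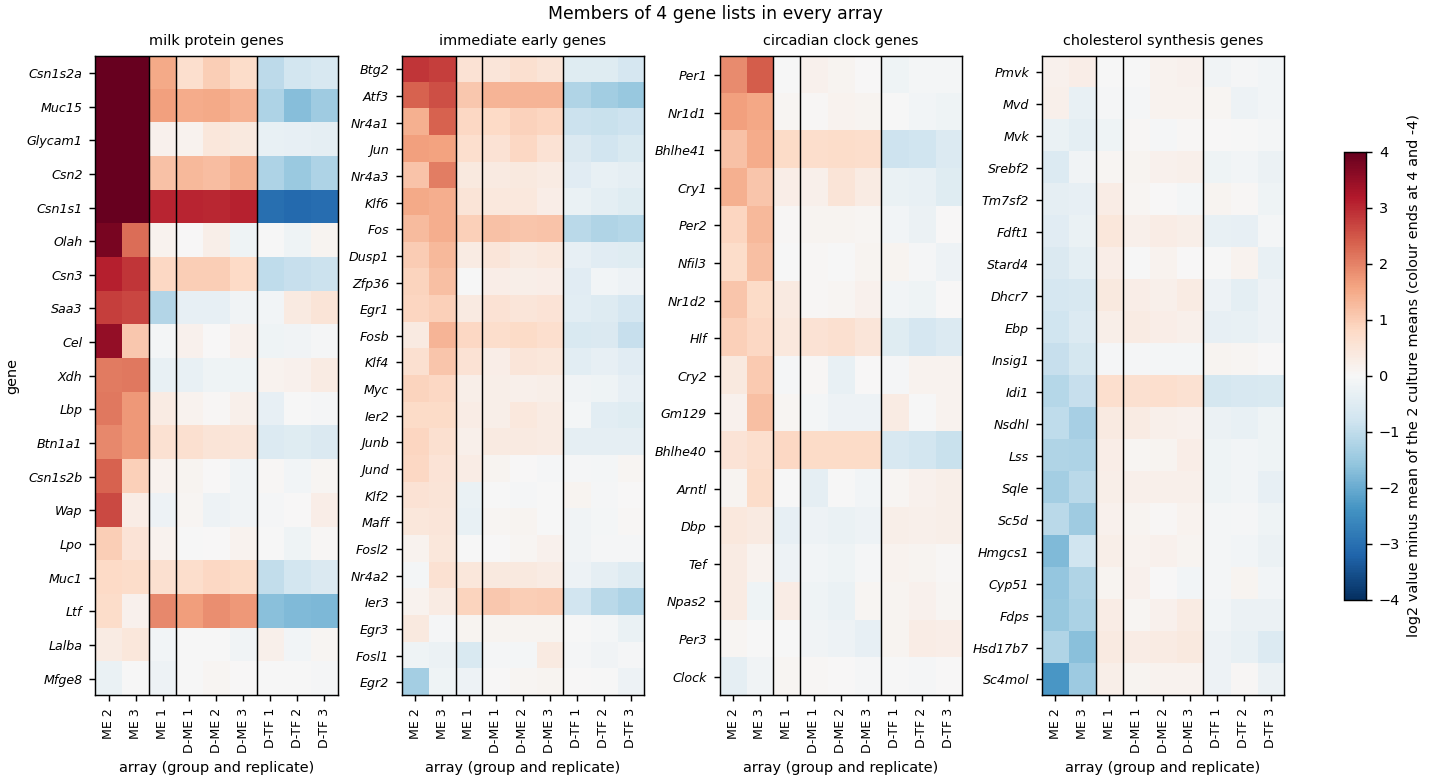
Each row is a gene and each column an array, ME replicates 2 and 3 first, then the array labelled ME replicate 1, D-ME-iPSC and D-TF-iPSC; colour is the log2 value minus the mean of the 2 culture means, from blue (-4) to red (4). Most milk protein, immediate early and clock genes are red in ME replicates 2 and 3, most cholesterol synthesis genes are blue there, and the ME replicate 1 column is mostly close in colour to the D-ME-iPSC columns.

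Genes of stroma and of other cell types were measured beside these results, and their part in them was not tested. Dcn and Lum, small proteoglycans of collagen fibrils made by fibroblasts, were higher in ME: Dcn had 12.40 and 12.66, against 11.28, 11.33 and 11.27 in D-ME-iPSC and 11.48, 11.33 and 11.57 in D-TF-iPSC. Of 13 genes of resting stroma, chosen after the values were seen, 10 were called higher and 1 lower; Dpt (dermatopontin, a matrix protein) had 11.49 and 12.03 in ME, against 8.56 to 8.67 in D-ME-iPSC and 9.07 to 9.53 in D-TF-iPSC. The pan-fibroblast receptor Pdgfra had 9.52 and 9.90 in ME, which overlapped D-ME-iPSC at 9.28 to 9.53 and lay below D-TF-iPSC at 11.00 to 11.06.

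Leukocyte genes gave a mixed picture. Cd68, a lysosomal protein abundant in macrophages, had 11.03 and 10.03 in ME, against 7.88 to 8.12 in D-ME-iPSC and 9.34 to 9.69 in D-TF-iPSC, whereas Csf1r, the receptor that defines macrophages, was lower in ME at 6.22 and 6.27, against 6.62 to 6.81 in the 6 cultured arrays. Of the 23 probe sets of Csf1r 5 lay lower and 1 higher in ME, and its brightest one gave -0.02 (adjusted p = 0.95, limma), which ended the call. Emr1 (F4/80) was not called. Of 23 macrophage and myeloid genes 3 were higher and 1 lower, or 13.0% and 4.35% against 13.7% and 19.5% over all genes, and the mean level of the list was 7.12 and 6.73 in ME, against 6.48 to 7.42 in the cultured arrays. Of 17 lymphocyte genes 6 were higher and none lower, with list means of 6.37 and 5.87 against 5.59 to 5.75; the leukocyte antigen Ptprc and the T and B cell genes Cd3e and Cd79a were not called. Of 9 MHC class II genes 4 were higher and none lower. Cd74, their invariant chain, had 7.78 and 6.74 in ME, against 5.68 to 6.03 in the cultured arrays, and its difference of 1.41 was 0.89 without ME replicate 2.

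Of 18 endothelial genes 10 were called lower in ME and 3 higher, and with the brightest probe set 5 were lower and 3 higher. Pecam1 and Cdh5, adhesion proteins that define endothelium, were both lower by 1.44; Pecam1 had 6.82 and 6.89 in ME, against 8.05, 8.22 and 8.12 in D-ME-iPSC and 8.46, 8.54 and 8.41 in D-TF-iPSC. Ramp2 and the lymphatic gene Lyve1 were among the higher members, at 1.28 and 0.85. Of 13 adipocyte genes 7 were higher and 1 lower, or 4 and none when each culture had to pass; the fatty acid carrier Fabp4 was called at 0.67, with 1.15 against D-ME-iPSC and 0.19 against D-TF-iPSC (adjusted p = 0.176, limma), while the adipocyte hormone Adipoq (5.36 and 4.85 in ME, 4.61 to 4.97 in the cultured arrays) and Plin1 were not. Of 10 skeletal muscle and red cell genes 5 were higher and 1 lower, all 5 by less than 1 log2 unit, and 2 were higher with the brightest probe set. Of 16 pluripotency genes 5, or 31.2% against 13.7% over all genes, were called higher in ME and none lower. They were led by Klf4 at 0.87, which was also one of the reprogramming factors. The count was 2 on leaving out replicate 2 or replicate 3 of D-ME-iPSC, or replicate 1 of D-TF-iPSC, and 3 on leaving out replicate 2 of D-TF-iPSC or of ME. It was also 2 with the replicate block and when each culture had to pass, and the call on Klf4 ended with the median of the probe sets (0.22, adjusted p = 0.274, limma). The core genes Pou5f1, Nanog and Sox2 were not called: Pou5f1 had 5.90 and 5.96 in ME and 5.50 to 5.88 in the cultured arrays. Of 15 endoderm and yolk sac genes 3 were higher and 2 lower, with Afp, Sox17 and Ttr not called.

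Tnc had the largest difference among the leading genes lower in ME. This gene, which encodes the matrix glycoprotein tenascin C, had 7.14 and 7.48 in ME, against 12.30, 12.27 and 12.25 in D-ME-iPSC and 12.37, 12.38 and 12.36 in D-TF-iPSC. All 6 cultured arrays lay within a narrow range far above both ME arrays, and all 29 probe sets separated the groups. The difference was -5.01 (SE 0.10), a 32.2-fold higher level in the cultures (adjusted p = 3.62e-09, limma). Inhba, the activin beta A subunit of the TGF-beta family, had 6.70 and 6.86 in ME, against 11.66, 11.60 and 11.60 in D-ME-iPSC and 11.18, 11.15 and 11.02 in D-TF-iPSC. P4ha3, a collagen prolyl hydroxylase subunit, had 6.52 and 6.20 in ME, against 9.05, 8.86 and 8.97 in D-ME-iPSC and 10.89, 10.80 and 10.90 in D-TF-iPSC.

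Of 30 fibroblast and matrix genes, 19 were called lower in ME and 2, Dcn and Lum, higher, with a median difference of -1.09. Most of this list was farther from D-TF-iPSC than from D-ME-iPSC. When the cultures were compared, 26 of the 30 genes were lower in D-ME-iPSC and 1 higher, against 12.8% and 15.5% of all genes. Col1a1, the main collagen chain of fibroblasts, had 8.28 and 8.96 in ME, against 9.07, 9.07 and 9.08 in D-ME-iPSC and 10.71, 10.80 and 10.84 in D-TF-iPSC. Its difference from D-ME-iPSC alone did not pass the threshold (adjusted p = 0.056, limma). S100a4, a calcium-binding protein of motile fibroblasts, had 6.97 and 7.42 in ME, against 8.96, 9.02 and 9.09 in D-ME-iPSC and 11.18, 11.45 and 11.65 in D-TF-iPSC. Both genes were nearest to ME in D-ME-iPSC. Fn1, which encodes fibronectin, had 11.36 and 12.23 in ME, against 12.73 to 12.79 in D-ME-iPSC and 12.90 to 13.01 in D-TF-iPSC; its difference of -1.06 was -0.63 without ME replicate 2.

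Matrix protease genes, with their inhibitors and receptors, were nearly all lower: 15 of 19 were called lower and none higher, with a median of -1.35. Timp1, an inhibitor of matrix metalloproteinases, had 7.87 and 8.35 in ME, against 11.61, 11.57 and 11.58 in D-ME-iPSC and 11.59, 11.71 and 11.52 in D-TF-iPSC. It was 11.2-fold higher in the cultures, and the 2 cultures overlapped. Serpinb2, an inhibitor of the urokinase plasminogen activator, had 5.87 and 6.25 in ME, against 10.81, 10.91 and 10.91 in D-ME-iPSC and 7.71, 7.28 and 7.59 in D-TF-iPSC. Mmp13, a collagenase, had 5.71 and 5.84 in ME, against 7.23, 7.00 and 7.17 in D-ME-iPSC and 10.16, 10.21 and 10.27 in D-TF-iPSC. Serpinb2 was thus highest in D-ME-iPSC and Mmp13 in D-TF-iPSC, and both were lowest in ME.

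Adamts6, a secreted metalloproteinase of the ADAMTS family, had 5.56 and 5.26 in ME, against 7.92, 7.96 and 7.95 in D-ME-iPSC and 9.73, 9.72 and 9.65 in D-TF-iPSC. ME lay below both cultures, 5.80-fold below D-ME-iPSC and 19.6-fold below D-TF-iPSC, with a difference of -3.42 (SE 0.09, adjusted p = 3.76e-08, limma). Of its 29 probe sets 22 separated the groups in this direction and none in the other, but its brightest probe set alone gave 0.25. The family did not move together: of 19 ADAMTS genes 4 were higher in ME and 4 lower, with a median of 0.05. These were 21.1% each way, against 13.7% and 19.5% over all genes. Adamts5, an aggrecanase, was lower with 8.67 and 8.77 in ME, against 9.74 to 9.90 in D-ME-iPSC and 11.29 to 11.47 in D-TF-iPSC. Adamts15 was higher, at 6.88 and 7.46 in ME, against 6.33 to 6.47 in the cultured arrays, and its difference of 0.76 was 0.47 without ME replicate 3.

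**Figure D4:**
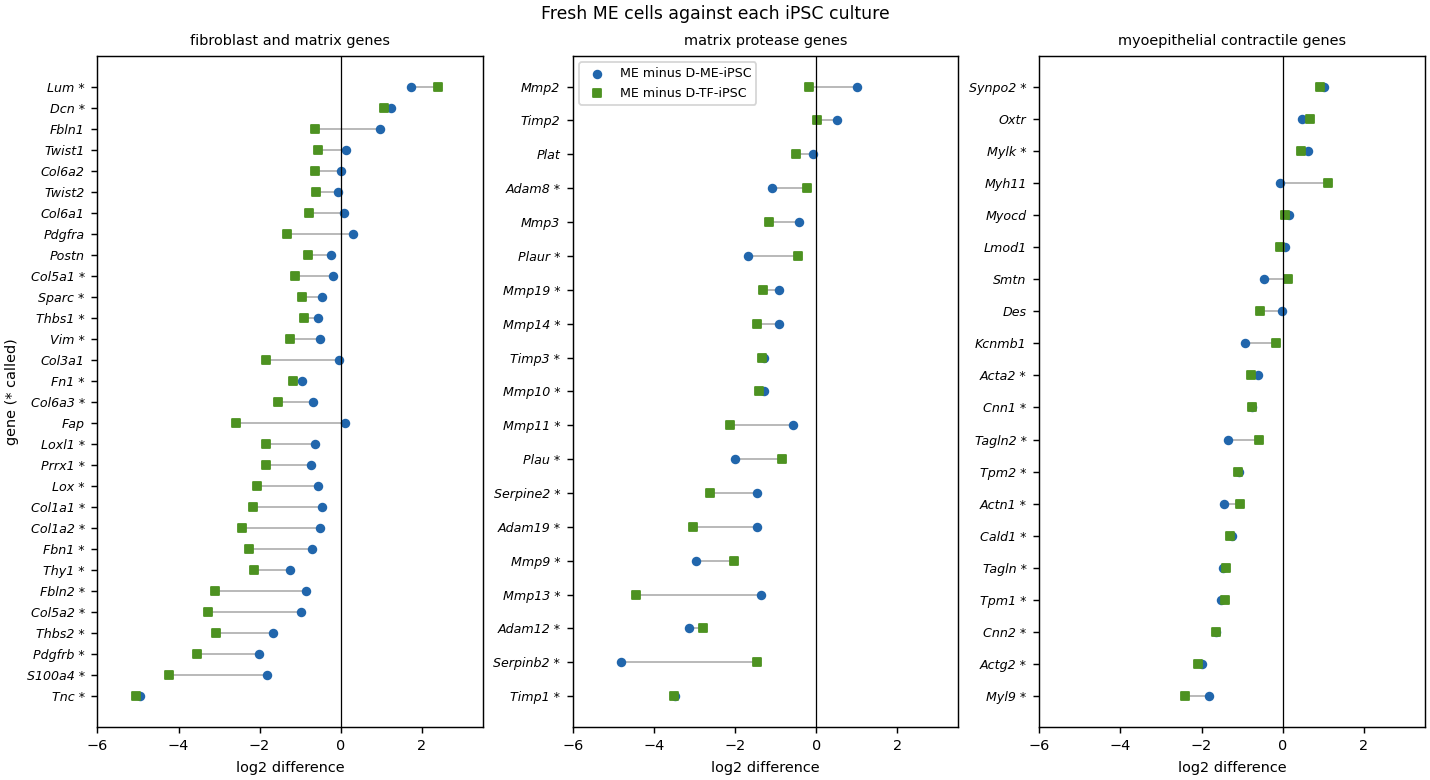
Log2 difference of ME (replicates 2 and 3) from D-ME-iPSC (blue circles) and from D-TF-iPSC (green squares) for every measured member of 3 gene lists; an asterisk marks a called gene, and the comparisons share the ME arrays. Collagen genes lie farther left against D-TF-iPSC, while Tnc, Timp1 and most contractile genes have nearly equal differences from both cultures.

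Contractile genes of myoepithelial and smooth muscle cells were lower in the fresh cells. Of 20 measured, 11 were called lower and 2 higher, with a median of -0.73. Actg2, smooth muscle gamma-actin, had 7.36 and 9.44 in ME, against 10.35, 10.42 and 10.42 in D-ME-iPSC and 10.48, 10.53 and 10.47 in D-TF-iPSC. Its difference of -2.05 (SE 0.40, adjusted p = 0.00264, limma) was uneven between the fresh arrays, at -3.09 without replicate 3 and -1.01 without replicate 2. Acta2, smooth muscle alpha-actin, was called at -0.70, with 11.66 and 12.75 in ME and 12.80 to 13.02 in the cultured arrays; without replicate 2 the difference was -0.16 and the call ended, as it did after centring (-0.60) and quantile normalization (-0.59). Myl9, a myosin regulatory light chain, had 8.58 and 10.23 in ME, against 11.16 to 11.32 in D-ME-iPSC and 11.78 to 11.87 in D-TF-iPSC, and its difference of -2.12 was -1.29 without replicate 2. For each of these 3 genes replicate 2 was the lower of the fresh arrays. Myh11, smooth muscle myosin, was not called: it had 10.80 and 11.44 in ME, 11.13 to 11.26 in D-ME-iPSC and 9.89 to 10.10 in D-TF-iPSC. The myoepithelial marker Oxtr was not called either, with 6.98 and 7.81 in ME and 6.55 to 7.05 in the cultured arrays, a difference of 0.57. Synpo2 and Mylk were the 2 higher members, at 0.97 and 0.54.

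Targets of the mechanosensitive factors YAP and SRF followed the same direction in part. Of 21, 11 were lower and 3 higher in ME, with a median of -0.39. Ankrd1, a nuclear ankyrin repeat protein and a standard YAP target, had 6.33 and 7.05 in ME, against 11.51, 11.66 and 11.71 in D-ME-iPSC and 10.91, 10.76 and 10.63 in D-TF-iPSC, a 22.7-fold higher level in the cultures; its difference was -4.50, and -1.76 with the brightest probe set. Ctgf and Cyr61, the other standard targets, were not called: Ctgf had 10.63 and 11.79 in ME and 11.45 to 11.74 in the cultured arrays, and Cyr61 had 12.37 and 12.48 in ME and 12.39 to 12.75 in the cultured arrays. Among 25 integrin and adhesion genes 10 were lower and 2 higher, or 40.0% and 8.0%, against 19.5% and 13.7% over all genes. In the top quartile of level 38.1% of all genes were lower. Flna, the actin crosslinker filamin A, had 9.19 and 10.44 in ME, against 11.55 to 11.61 in D-ME-iPSC and 11.48 to 11.54 in D-TF-iPSC; its difference of -1.73 was -1.11 without replicate 2.

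Cholesterol synthesis had the largest share of lower members among the same 36 lists: 16 of 20 genes were called lower and none higher, with a median of -0.92, and after median centring 15 were lower and 1 higher. Sc4mol, the sterol C4-methyl oxidase (Msmo1 in current use), had 7.53 and 8.42 in ME, against 9.96 to 10.01 in D-ME-iPSC and 9.64 to 9.90 in D-TF-iPSC. Sqle, a squalene epoxidase that catalyses a rate-limiting step, had 8.72 and 9.01 in ME, against 10.28, 10.30 and 10.30 in D-ME-iPSC and 9.93, 9.97 and 9.76 in D-TF-iPSC. Cyp51, lanosterol demethylase, had 8.19 and 8.51 in ME, against 9.63 to 9.89 in D-ME-iPSC and 9.64 to 9.83 in D-TF-iPSC. All 6 cultured arrays lay above both fresh arrays in these genes. When the cultures were compared, 10 of the 20 genes were higher in D-ME-iPSC and none lower, against 15.5% and 12.8% of all genes. Sqle differed by 0.41 (adjusted p = 0.0117, limma), and Idi1, isopentenyl diphosphate isomerase, by 1.30. Fatty acid and milk fat genes split instead, with 5 of 23 higher and 8 lower, or 21.7% and 34.8%, against 13.7% and 19.5% over all genes. Fabp3, the fatty acid carrier of lactating gland and muscle, had 11.55 and 9.22 in ME, against 6.12, 6.13 and 6.14 in D-ME-iPSC and 6.86, 6.86 and 7.35 in D-TF-iPSC. Thrsp, a regulator of fatty acid synthesis read by 2 probe sets, had 10.84 and 9.14 in ME and 6.01 to 6.29 in the cultured arrays. Scd2, a stearoyl-CoA desaturase, had 6.62 and 7.21 in ME, against 8.92 to 9.02 in D-ME-iPSC and 9.90 to 10.13 in D-TF-iPSC.

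Over all genes 19.5% were lower in ME, with 28.8% and 38.1% in the third and top quartiles of level. Of 30 DNA replication genes 9, or 30.0%, were called lower and none higher. Of 32 mitosis genes 7, or 21.9%, near the share over all genes, were lower and none higher. Without ME replicate 3 these counts were 21 and 31, beside 5043 of 20422 over all genes. The mean level of the mitosis genes was 7.77 and 8.87 in ME, against 8.64 to 9.47 in the cultured arrays, so replicate 3 lay within the cultures' range and replicate 2 below it. Rrm2, a subunit of ribonucleotide reductase, had 6.68 and 7.93 in ME, against 10.29 to 10.40 in D-ME-iPSC and 9.56 to 9.72 in D-TF-iPSC. Mki67, the proliferation antigen Ki-67, was not called, with 9.27 and 10.32 in ME, 9.91 to 9.97 in D-ME-iPSC and 9.26 to 9.45 in D-TF-iPSC.

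Of 36 cytosolic ribosomal protein genes, 18 were higher and none lower, with a median of 0.25, and the count was 24 after centring, 11 without ME replicate 2 and 4 when the brightest probe set stood for each gene. Respiratory chain genes had 16 of 44 lower, or 36.4% against 19.5% over all genes, and none higher, with a median of -0.15. In the top quartile of level 38.1% of all genes were lower, with a median of -0.22. After centring 12 respiratory chain genes were lower and 3 higher, and with the brightest probe set 9 were lower and none higher. In glycolysis 2 of 19 genes were higher and 4 lower: Pfkfb3, which makes the activator of phosphofructokinase, had 11.01 and 10.68 in ME, against 8.15 to 8.45 in D-ME-iPSC and 8.60 to 8.83 in D-TF-iPSC, and the glucose transporter Slc2a1 differed by 1.10. Of 25 interferon-response genes 4 were higher and 7 lower, Isg15 among the lower at -2.10. Oxidative stress genes gave 4 of 18 higher and 5 lower, p53 targets 4 of 18 and 6, and amino acid response genes 4 of 20 and 4. In the Notch pathway 4 of 17 were lower and none higher, and none of 4 sex-linked genes was called. Over all genes 13.7% were higher and 19.5% lower. Glycolysis, at 10.5% and 21.1%, was near these shares, as were the amino acid response genes and the lower share in the Notch pathway, 23.5%. Oxidative stress genes had 22.2% higher and 27.8% lower, and p53 targets 22.2% and 33.3%. Their lower shares, and that of interferon-response genes, lay between 19.5% and the 38.1% of the top quartile of level.

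The array labelled ME replicate 1 shared few of these differences. Of the 2795 genes higher in ME replicates 2 and 3 it lay above all 6 cultured arrays in 669, 23.9%, below all 6 in 572, 20.5%, and within their range in the others; over all genes these shares were 20.8% and 22.4%. Of the 3973 lower genes it lay below all 6 in 403, 10.1%, and above all 6 in 1194, 30.1%. Csn2 was 8.52 in that array, against 8.60 to 8.77 in D-ME-iPSC, Tnc was 12.40, Timp1 11.52 and Actg2 10.51. Csn1s2a, at 7.26, was above all 6 cultured arrays and below both other ME arrays. With all 9 arrays the difference for Csn2 was 3.70 (adjusted p = 0.0195, limma), for Adamts6 -2.50 (0.0246), for Tnc -3.31 (0.0711) and for Actg2 -1.34 (0.154). In the same fit 3 milk protein genes, 5 immediate early genes and 2 clock genes were called higher, and 6 fibroblast and matrix genes and 1 matrix protease gene lower; no cholesterol synthesis gene was called, although 20 were measured. What that array contains was not tested.

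**Figure D5:**
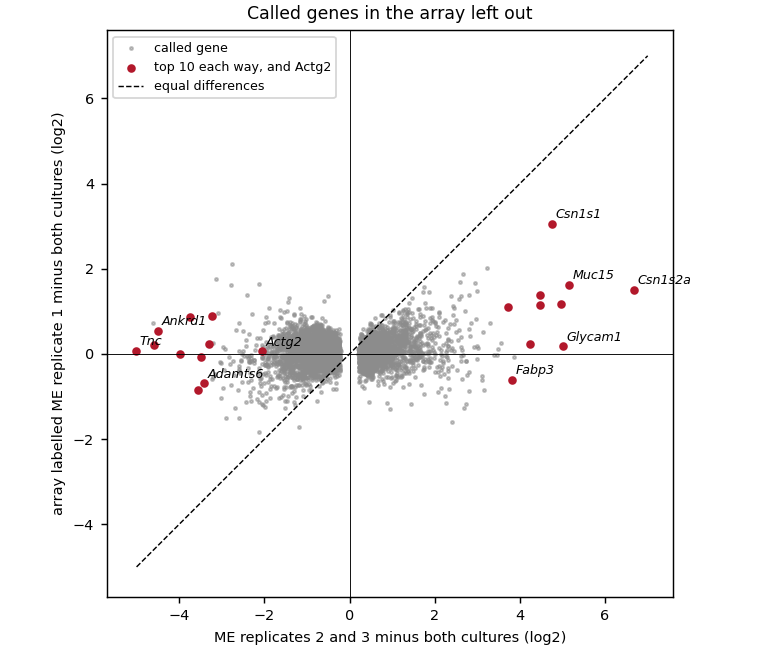
For each called gene, the log2 difference of the array labelled ME replicate 1 from both cultures (vertical axis) against that of ME replicates 2 and 3 (horizontal axis); the dashed line marks equal differences and red points are the 10 leading genes each way and Actg2. Most points lie nearer to 0 on the vertical axis than to the dashed line, and Csn1s1 is the highest red point.

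The fresh arrays also differed from each other. Replicate 2 was farther from the cultures than replicate 3 in 61.4% of the higher and 67.6% of the lower genes, and in 63.8% of all genes. Their values differed by more than 1 log2 unit in 85 of the higher and 83 of the lower genes. Removing replicate 3 gave 5145 higher and 5043 lower genes, and removing replicate 2 gave 2755 and 4270; in each of these fits the remaining ME array had no replicate and was taken to vary like the cultures. List means also differed between ME replicates 2 and 3. They were 6.37 and 5.87 for lymphocyte, 9.14 and 8.75 for milk fat, and 8.09 and 7.54 for interferon-response genes. Respiratory chain genes had 9.61 and 9.46, glycolysis genes 9.81 and 9.96, and amino acid response genes 8.73 and 8.96. Basal genes had 8.95 and 9.52, oxidative stress genes 9.33 and 9.87, contractile genes 8.82 and 9.57, and pluripotency genes 6.46 and 6.35. With adjusted p under 0.05 required against each culture separately, 1870 genes, 9.16%, were higher in ME and 3200, 15.7%, lower. Of 19 milk protein genes 15 were higher under that rule, and of 20 cholesterol synthesis genes 16 were lower.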

How the data were processed

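Total RNA of 9 mouse samples was hybridised to Affymetrix exon arrays, 3 per group. The values the authors deposited are log2 expression per probe set, which the submitters' processing notes tie to RMA and Partek (versions not stated); the label names RNA STAT-60 and the study's methods TRIzol. Of 241576 probe sets, 212138 had exactly 1 gene symbol in GEO's platform annotation, 4672 had several and 24766 none. Values of the first kind were averaged into 20422 genes, of which 17626 carry a symbol still in use; the median gene had 8 probe sets.

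Both ME arrays kept were compared with the 6 cultured arrays in limma 3.58.1 (R 4.3.3), with 1 mean per group, no covariate, the contrast ME minus the mean of the culture means, and Benjamini-Hochberg adjustment over all genes. The labels give 3 biological replications per cell type but not whether they are separate animals or iPSC lines, so p-values measure the spread between these arrays. That spread is 1 value per gene pooled over the 3 groups, so it comes mostly from the 6 cultured arrays. In the fit with array weights each ME array had a weight of 0.272, against 1.09 to 2.48 for the cultured arrays. The SEs and p-values can therefore understate the spread of the ME arrays. On simulated data with 200 changed genes of each size among 20422, the fit recovered 56.5% at 0.5, 90.5% at 1 and 99.5% at 2 log2 units, with 4.09% of calls false. All simulated arrays were drawn around 1 culture mean per gene, with the same spread in ME and cultured arrays. Far fewer genes changed there than were called here, so these rates do not carry over to the calls on the data. The number of arrays limits the precision. Tables were handled in Python 3.11.15 with pandas 2.3.3 and numpy 2.4.6.

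The members, the 36 gene lists and 3 later lists were chosen with earlier results of these data known. Genes were picked for naming if they were Adamts6, Actg2 or Csn2, or among the 10 called genes each way with the largest difference (at least 3 probe sets, symbol in use). Also picked were the 2 largest called each way in a list and defining markers of a cell type. Others, such as Csn3, Wap, Fos, Sqle, Fn1, Ctgf, Mki67, Lpin1, C3 and Dpt, were added after their values were seen. Not all genes picked are described above. Alternatives changed the scaling, the gene summary, the fit, the call rule and the arrays.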

Additional observations from a re-analysis of the deposited data

Results flagged for a closer look

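For the 3 genes Adamts6, Actg2 and Csn2 and the 10 leading genes each way, 21 genes in all, the difference between the cultures themselves was tested with limma, since it is also the difference between their distances from ME. It passed an adjusted p of 0.05 in 16 of them. Over all genes D-ME-iPSC was higher in 15.5% and lower in 12.8%. The culture difference did not pass in 75.3% of all genes called higher in ME and 60.3% of those called lower. D-ME-iPSC was above D-TF-iPSC by 6.10 log2 units for Csn1s1, 2.92 for Muc15, 2.75 for Cxcl2, 2.63 for Csn2, 2.57 for Gm10573, 2.46 for Elf5, 1.83 for Cxcl13, 1.62 for Csn1s2a and 0.67 for Glycam1, so for these genes, all higher in ME, the D-TF-iPSC level was the farther from ME. Among genes lower in ME, D-ME-iPSC was above D-TF-iPSC by 1.68 for Anxa8, a membrane-binding annexin, 1.41 for AA467197, 0.86 for Ankrd1 and 0.51 for Inhba. It was below D-TF-iPSC for P4ha3, Adamts6 and Ddah1, an enzyme that breaks down methylated arginine, with differences of -1.90, -1.76 and -0.36.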

How the results depend on the processing

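The 2795 higher and 3973 lower calls depended most on which ME arrays entered. With all 9 arrays they numbered 393 and 244, and leaving out 1 array at a time gave 2415 to 5145 higher and 3823 to 5043 lower, the 5145 without ME replicate 3. Median centring gave 4460 higher and 3261 lower and quantile normalization 3815 and 3221, with higher genes making up 57.8% and 54.2% of the calls against 41.3%. Genes above the median level, fitted alone, gave 1480 higher and 3477 lower. In the main fit the third and top quartiles of level held 666 and 762 higher calls and 1469 and 1947 lower calls. Array weights gave 1310 higher and 2921 lower, and an adjusted p under 0.01 gave 1770 and 3403. A fold of at least 2 left 542 higher and 992 lower, and the methods' t-test gave 3127 and 3685 unadjusted and 1672 and 2436 after Benjamini-Hochberg. Deviations from the group means correlated at -0.081 to 0.053 between arrays with the same replicate number. The deviations of the 2 ME arrays are mirror images of each other, so this check could not decide whether the numbers pair the ME arrays. The fit with the replicate numbers as a block called 2360 higher and 3731 lower. When the brightest probe set stood for each gene, the sign turned for Adamts6 (0.25), Pparg (0.44), Tnnt3 (-0.36), Cubn (0.75), Adamts18 (-0.02), H2-Aa (-0.10), Heyl (0.10), Klf15 (-0.16), Orm1 (-0.10) and Mmp10 (0.03), and Klf15 also turned with all 9 arrays (-0.07). Of 174 called genes picked for naming, described above or not, 17 passed again with all 9 arrays, 169 after centring and 142 with the brightest probe set. The causes were not tested.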
